A study of Danio rerio with 10 samples.

Results

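Nemaline myopathy is a congenital muscle disease, named after the rod-like bodies seen in muscle fibers, that in people is often traced to genes of the actin-based thin filament. The genes described here are neb, lmod3, tmod1, tmod4, klhl40a, klhl40b, klhl41a, klhl41b and cfl2, which were taken by name, as 9 of the 32265 genes in the deposited tables, by a list drawn up with earlier results of these data known. All 9 were found, each at a locus of its own. The human counterparts of neb, lmod3, the klhl40 and klhl41 pairs and cfl2 are known nemaline myopathy genes, and the tropomodulins tmod1 and tmod4 were included because they cap the same filament.

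RNA was sequenced from AB zebrafish that carry a human tropomyosin transgene, TPM3(E151G), TPM3(E151A) or TPM3(WT), driven by the MLC2 promoter together with a myl7:EGFP heart marker, so the control fish carry human TPM3 as well. Muscle of adult TPM3(E151G), TPM3(E151A) and TPM3(WT) fish at 6 months gave 2 libraries per genotype. Embryos gave 1 library each of TPM3(E151G) kept in l-carnitine, TPM3(E151G), TPM3(E151A) and TPM3(WT), all labelled as whole embryos of 2 days, although the treatment protocol runs from 28 hours to 7 days after fertilization and the paper writes of muscle from embryos. Which of these describes the sequenced embryos is not settled here. These 10 libraries reached the tables as 7 conditions, because the authors combined the 2 adult libraries of a genotype into a single value. Levels are FPKM, fragments counted per length of transcript and per total of the library. With 1 value per condition, no spread between fish and no test could be computed for any gene, so every difference below is a description of these values. Differences are given as the log2 ratio of FPKM + 1, and a gene was counted as higher or lower when that ratio reached 2-fold.

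A thin filament is a strand of actin wrapped by tropomyosin and troponin. Nebulin lies along it, leiomodin and tropomodulin act at its pointed end, which faces the middle of the sarcomere, and cofilin severs actin and drives its turnover. KLHL40 and KLHL41 are muscle kelch proteins that in mice have been linked to the stability of nebulin, and KLHL40 also to that of leiomodin-3. Loss of nebulin, leiomodin-3, KLHL40, KLHL41 or cofilin-2 leaves muscle weak in people or mice, and rods are a common sign.

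The tissue labels were checked first. Of 24 skeletal muscle marker genes, 22 or 23 had an FPKM of 1 or more in each condition and none was listed at 0, with summed levels of 51608 to 89402 FPKM in adults and 62621 to 90051 FPKM in embryos. Embryos also held lens markers (13 genes, summed 3301 to 5720 FPKM, against 2.48 to 8.55 FPKM in adults). In adult muscle the summed level of 12 oocyte genes was 1107 FPKM in TPM3(E151G), 1273 FPKM in TPM3(E151A) and 5099 FPKM in TPM3(WT), none of the 12 being at 0. That of 14 testis and sperm genes was 20.8, 386 and 122 FPKM in the same order. Other tissues were present in adult muscle as well. Erythrocyte genes, 14 in all, summed to 1435 FPKM in TPM3(E151G), 3048 FPKM in TPM3(E151A) and 780 FPKM in TPM3(WT), and only the embryonic globin genes hbbe1.1 and hbbe3, in TPM3(E151G), were listed at 1e-05 FPKM, counted here as 0. The sums of 12 neuron genes, none at 0, were 173 FPKM in TPM3(E151G), 101 FPKM in TPM3(E151A) and 82.3 FPKM in TPM3(WT). Heart genes were near 0, at 4.32 to 8.42 FPKM for 14 genes, and 11 skin genes summed to 948 to 1519 FPKM. The FPKM of all genes summed to 1404367 in adult TPM3(E151G), 759381 in TPM3(E151A) and 712329 in TPM3(WT), and genes of the mitochondrial genome took 47.6%, 36.2% and 25.9% of these sums. Embryo sums lay between 575410 and 739917, with 13.1% to 15.4% from mitochondrial genes. The part of germ cell, erythrocyte, neuron and skin RNA and of the mitochondrial share in the results below was not tested. Because the material is bulk tissue, more muscle cells in a sample and more RNA per muscle cell cannot be told apart.

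The 9 genes were expressed at very different levels. In every condition neb, tmod4, cfl2 and klhl41b had the highest FPKM of the group, while lmod3, tmod1, klhl40a, klhl40b and klhl41a had at most 11.1 FPKM. Summed over the 9 genes, the level was 2014 FPKM in adult TPM3(E151G), 1001 FPKM in adult TPM3(E151A) and 715 FPKM in adult TPM3(WT). As a share of all FPKM outside the mitochondrial genome these sums were 0.274%, 0.207% and 0.136%. In embryos the summed level was 474 FPKM in TPM3(E151G) with l-carnitine, 609 FPKM in TPM3(E151G), 530 FPKM in TPM3(E151A) and 453 FPKM in TPM3(WT), and the share was 0.0926%, 0.0956%, 0.0927% and 0.0918% in that order. As a share of all FPKM, mitochondrial genes included, the adult values were 0.143%, 0.132% and 0.1004%, so that TPM3(E151G) and TPM3(E151A) were close on this scale, and the embryo values lay between 0.0783% and 0.0823%.

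**Figure D1:**
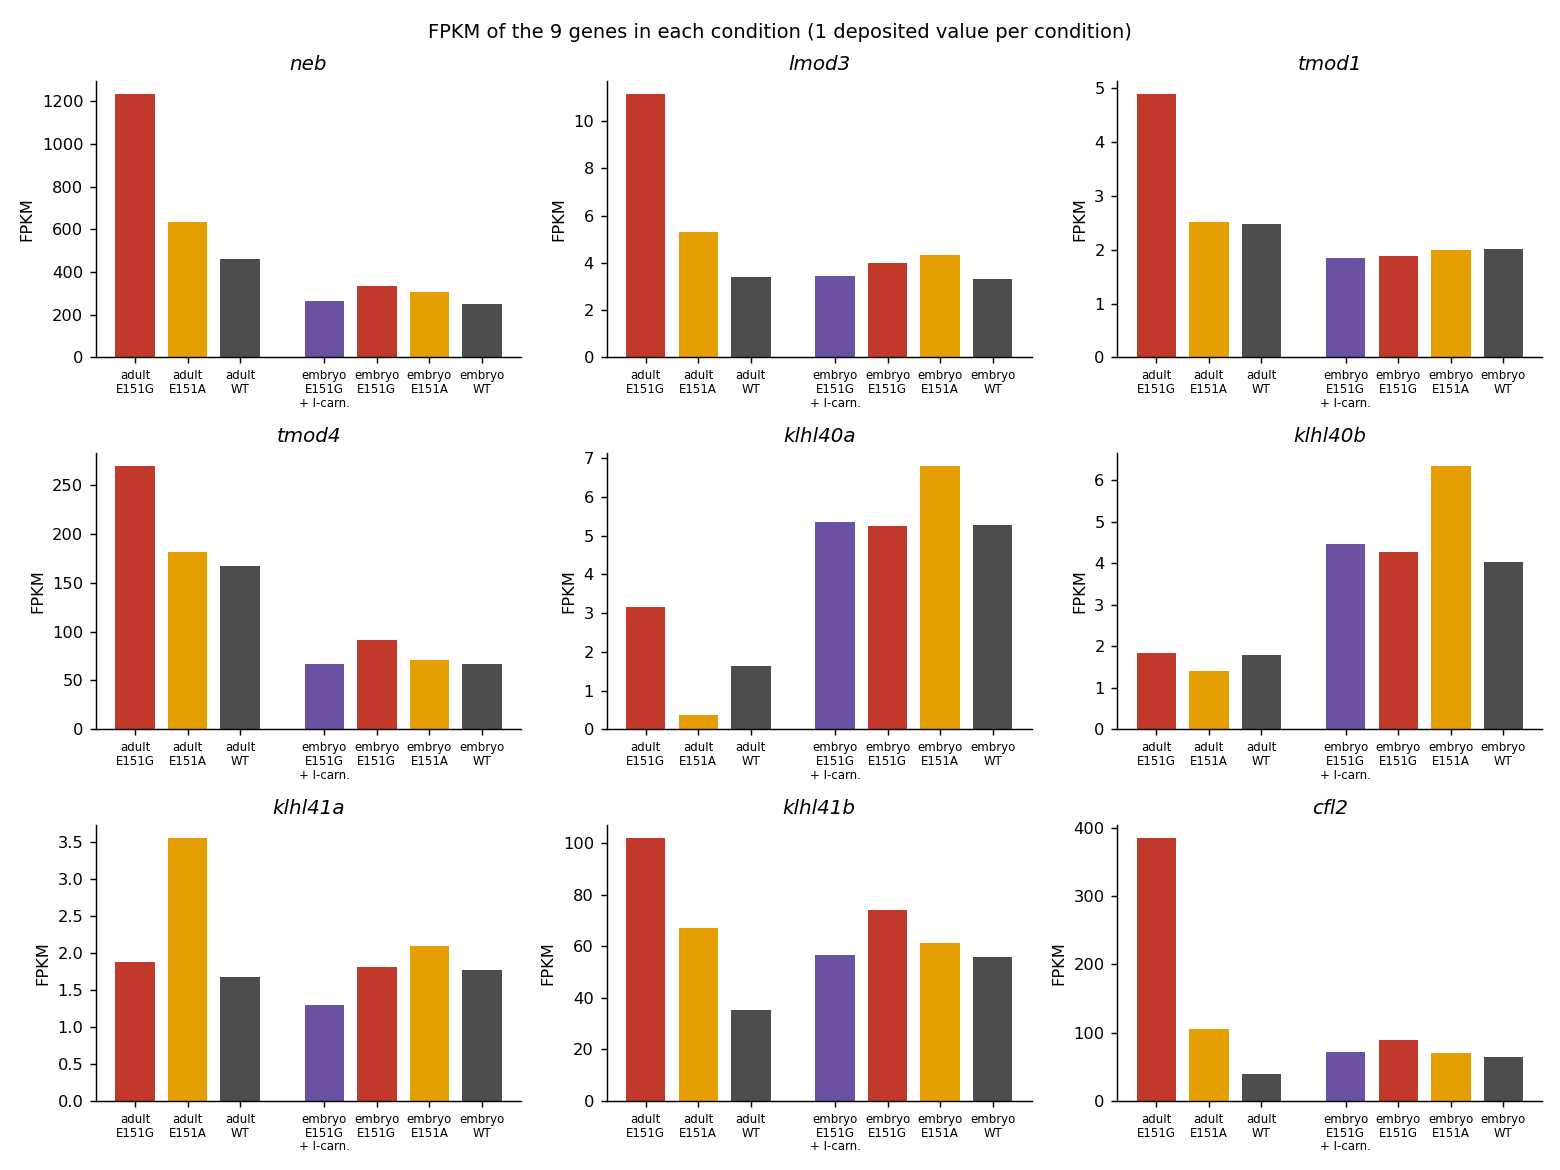
FPKM of each of the 9 genes (vertical axis, linear, starting at 0, with its own range in each panel) in the 3 adult and 4 embryo conditions, with 1 deposited value per bar and therefore no error bar. In adults the TPM3(E151G) bar is the tallest for 8 genes and the TPM3(E151A) bar for klhl41a, while klhl40a and klhl40b are higher in every embryo condition than in any adult one.

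Nebulin itself came first. The gene neb (ENSDARG00000032630, GRCz11 chromosome 9, 22994267 to 23081969) had 1234 FPKM in adult TPM3(E151G), 633 FPKM in adult TPM3(E151A) and 462 FPKM in adult TPM3(WT). It ranked 118, 131 and 195 among all genes of these conditions. In embryos neb had 263 FPKM in TPM3(E151G) with l-carnitine, 337 FPKM in TPM3(E151G), 306 FPKM in TPM3(E151A) and 250.0 FPKM in TPM3(WT). Adult values were thus spread over a 2.67-fold range and embryo values over a 1.35-fold range, with TPM3(E151G) highest and TPM3(WT) lowest at both stages as deposited. As a share of all FPKM the adult order was the same. The embryo shares were 0.0434%, 0.0455%, 0.0465% and 0.0435% in the order above, so that TPM3(E151A) was highest.

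The pointed-end proteins were represented by an abundant and a scarce tropomodulin and by leiomodin-3. The gene tmod4 (ENSDARG00000020890, chromosome 16, 29716074 to 29749570), the tropomodulin of skeletal muscle, had 270 FPKM in adult TPM3(E151G), 182 FPKM in adult TPM3(E151A) and 167 FPKM in adult TPM3(WT). Its embryo values were 66.4 FPKM in TPM3(E151G) with l-carnitine, 91.4 FPKM in TPM3(E151G), 71.2 FPKM in TPM3(E151A) and 66.4 FPKM in TPM3(WT). As deposited, TPM3(E151G) was again the highest at both stages. As a share of all FPKM, adult tmod4 was lowest in TPM3(E151G), at 0.0192%, against 0.0240% in TPM3(E151A) and 0.0235% in TPM3(WT). This share includes the mitochondrial genes. Of 8 other settings tried, only equal FPKM sums put tmod4 lower in TPM3(E151G) than in TPM3(WT). Against TPM3(E151A), 2 of 8 did so, equal FPKM sums with and without mitochondrial genes. The embryo share of tmod4 was still highest in TPM3(E151G). The gene tmod1 (ENSDARG00000078318, chromosome 1, 11541457 to 11573540), whose human counterpart is the tropomodulin of heart and red cells, was far scarcer, at 4.89 FPKM in adult TPM3(E151G), 2.52 FPKM in adult TPM3(E151A) and 2.48 FPKM in adult TPM3(WT). In embryos tmod1 was nearly flat, at 1.85 FPKM in TPM3(E151G) with l-carnitine, 1.89 FPKM in TPM3(E151G), 2.00 FPKM in TPM3(E151A) and 2.01 FPKM in TPM3(WT). Per length, tmod4 exceeded tmod1 by 55.1 to 72.2 times in adults and 33.0 to 48.5 times in embryos. Leiomodin-3 starts new actin filaments, and the gene lmod3 (ENSDARG00000062662, chromosome 23, 14058900 to 14066565) had 11.1 FPKM in adult TPM3(E151G), 5.30 FPKM in adult TPM3(E151A) and 3.41 FPKM in adult TPM3(WT). Its embryo values were 3.46 FPKM in TPM3(E151G) with l-carnitine, 3.99 FPKM in TPM3(E151G), 4.34 FPKM in TPM3(E151A) and 3.33 FPKM in TPM3(WT). The adult order of lmod3 was that of neb, and the quotient of neb over lmod3 FPKM lay between 111 and 135 in adults.

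The kelch genes come as an a and a b copy in zebrafish, and the sources used here do not say how reads that fit both copies were counted. The copies of klhl41 were unequal. The gene klhl41b (ENSDARG00000006757, chromosome 6, 3519733 to 3529383) had 102 FPKM in adult TPM3(E151G), 67.1 FPKM in adult TPM3(E151A) and 35.5 FPKM in adult TPM3(WT). In embryos it had 56.8 FPKM in TPM3(E151G) with l-carnitine, 74.0 FPKM in TPM3(E151G), 61.4 FPKM in TPM3(E151A) and 55.8 FPKM in TPM3(WT), so that adult TPM3(WT) was the lowest of the 7 conditions. The gene klhl41a (ENSDARG00000068888, chromosome 9, 48572983 to 48584546) had 1.88 FPKM in adult TPM3(E151G), 3.56 FPKM in adult TPM3(E151A) and 1.68 FPKM in adult TPM3(WT). In embryos klhl41a had 1.29 FPKM in TPM3(E151G) with l-carnitine, 1.81 FPKM in TPM3(E151G), 2.09 FPKM in TPM3(E151A) and 1.78 FPKM in TPM3(WT). The b copy made up 95.0% to 98.2% of the klhl41 FPKM. As deposited, klhl41a was the only member of the 9 with its adult peak in TPM3(E151A). As a share of all FPKM, adult klhl41b was also highest there, at 0.00884%, against 0.00726% in TPM3(E151G) and 0.00498% in TPM3(WT). The adult share of tmod4 was highest in TPM3(E151A) as well.

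Both klhl40 copies were low. The gene klhl40a (ENSDARG00000039052, chromosome 2, 21668894 to 21677069) had 3.16 FPKM in adult TPM3(E151G), 0.361 FPKM in adult TPM3(E151A) and 1.63 FPKM in adult TPM3(WT), the lowest value being the only one of the 63 under 1 FPKM. Its embryo values were 5.37 FPKM in TPM3(E151G) with l-carnitine, 5.25 FPKM in TPM3(E151G), 6.80 FPKM in TPM3(E151A) and 5.28 FPKM in TPM3(WT). The gene klhl40b (ENSDARG00000019125, chromosome 24, 20430839 to 20437253) had 1.83 FPKM in adult TPM3(E151G), 1.40 FPKM in adult TPM3(E151A) and 1.79 FPKM in adult TPM3(WT). In embryos klhl40b had 4.46 FPKM in TPM3(E151G) with l-carnitine, 4.27 FPKM in TPM3(E151G), 6.35 FPKM in TPM3(E151A) and 4.03 FPKM in TPM3(WT). As deposited, TPM3(E151A) was for each copy the lowest condition in adults and the highest in embryos. The adult klhl40b values were low and close together, however. As a share of all FPKM, adult klhl40b was lowest in TPM3(E151G), at 0.00013%, against 0.000185% in TPM3(E151A) and 0.000251% in TPM3(WT). On this scale TPM3(E151A) was still lowest for adult klhl40a and highest for each copy in embryos.

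Cofilin-2, the muscle cofilin, had the widest fold range of the 9 genes between the adult conditions. The gene cfl2 (ENSDARG00000014106, chromosome 17, 9851026 to 9869190) had 385 FPKM in adult TPM3(E151G), 106 FPKM in adult TPM3(E151A) and 39.3 FPKM in adult TPM3(WT). That is a 9.81-fold range, next to 8.75-fold for the far scarcer klhl40a, and cfl2 ranked 264, 552 and 1884 among all genes. In embryos it had 71.6 FPKM in TPM3(E151G) with l-carnitine, 89.5 FPKM in TPM3(E151G), 69.9 FPKM in TPM3(E151A) and 64.0 FPKM in TPM3(WT), a 1.40-fold range. The adult TPM3(WT) level of cfl2 was under every embryo level, and those of adult TPM3(E151A) and TPM3(E151G) were above every embryo level.

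In adult muscle TPM3(E151G) against TPM3(WT), 4 of the 9 genes were higher by 2-fold or more and none was lower. Over all 16572 genes compared, 17.4% were higher by 2-fold or more and 25.5% were lower. The log2 ratio was 3.26 for cfl2, above that of 99.6% of all genes compared. It was 1.498 for klhl41b, 1.46 for lmod3 and 1.41 for neb, each above at least 90.7% of genes. The ratios of tmod1, tmod4 and klhl40a were 0.76, 0.69 and 0.66, and those of klhl41a and klhl40b were 0.10 and 0.02. The median of the 9 genes was 0.76, against -0.14 for all genes. All 9 ratios were above 0 in the values as deposited, 7 remained so when the FPKM outside the mitochondrial genome were set to equal sums, 6 when ratios were taken relative to the skeletal muscle markers, and 4 when all FPKM were set to equal sums. Under these same scalings the median ratio of all genes was -0.52, -0.82 and -0.91. The ratios of cfl2, klhl41b, lmod3 and neb stayed above 0 under every scaling tried, with lowest values of 2.29, 0.54, 0.63 and 0.44. Relative to skeletal muscle markers, whose own median ratio was 0.67, only cfl2 stayed 2-fold higher, at 2.59.

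As deposited, adult TPM3(E151A) against TPM3(WT) gave a smaller ratio than TPM3(E151G) for cfl2, neb, lmod3, tmod1, tmod4 and klhl41b, though not for klhl41a. Of the 9 genes, cfl2 was the only one higher by 2-fold or more, with a log2 ratio of 1.40, and none was lower, against 9.9% higher and 19.2% lower of 16865 genes compared. The ratio was 0.90 for klhl41b, 0.77 for klhl41a, 0.51 for lmod3 and 0.45 for neb. It was 0.12 for tmod4 and 0.02 for tmod1, and these reached -0.17 and -0.28 relative to the skeletal muscle markers. For klhl40b the ratio was -0.21. For klhl40a it was -0.95, and because its TPM3(E151A) level was so low this value depended on the added constant, being -1.91 with 0.1 added and -0.31 with 5 added. The median of the 9 genes was 0.45, against -0.22 for all genes and 0.29 for the skeletal muscle markers. The 2-fold count also depended on scaling, with 3 of the 9 genes higher after median-of-ratios scaling, where klhl41b reached 1.24 and klhl41a 1.04.

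**Figure D2:**
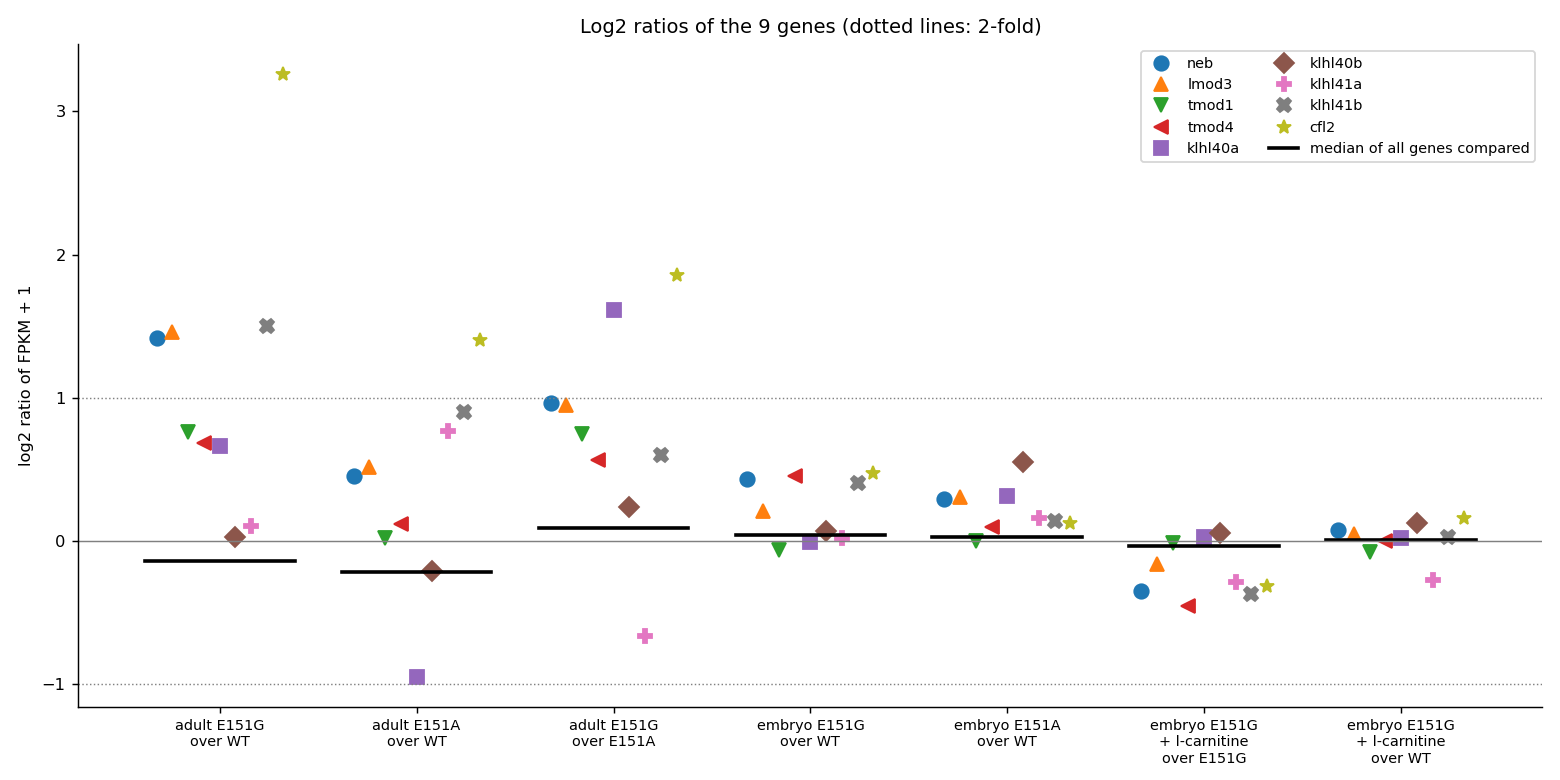
Log2 ratio of FPKM + 1 for the 9 genes (symbols) in each of the 7 comparisons, with the median of all genes compared as a black bar and 2-fold limits as dotted lines. Ratios reach 3.26 in adult TPM3(E151G) over TPM3(WT), while in the 4 embryo comparisons they all lie between -0.45 and 0.55.

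The mutants were also set against each other in adult muscle. In TPM3(E151G) against TPM3(E151A), cfl2 at 1.86 and klhl40a at 1.61 were 2-fold or more higher and none of the 9 was lower, against 10.1% higher and 9.88% lower of 16715 genes compared. Both calls depended on the settings. The klhl40a ratio rested on 0.361 FPKM in TPM3(E151A) and lay between 0.61 and 2.82 over the other settings tried. That of cfl2 was 0.98 at its lowest, just under 2-fold. For neb the log2 ratio was 0.96 and for lmod3 0.95, both just under 2-fold. Then came tmod1 at 0.74, klhl41b at 0.60, tmod4 at 0.57 and klhl40b at 0.24. Only klhl41a lay below 0, at -0.67. The median was 0.74, against 0.09 for all genes. Of the 8 ratios above 0, those of neb, lmod3, tmod1, klhl40a and cfl2 stayed above 0 under each scaling, whereas tmod4, klhl41b and klhl40b reached -0.32, -0.28 and -0.31 at the lowest. The 3 adult comparisons share their libraries, so they are not separate evidence. Side by side, cfl2, neb, lmod3, tmod1, tmod4 and klhl41b stood in the order TPM3(E151G), TPM3(E151A), TPM3(WT) from high to low as deposited. The FPKM sums of these conditions had the same order. As a share of all FPKM, the order held for cfl2, neb and lmod3 but not for tmod1, tmod4 and klhl41b.

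**Figure D3:**
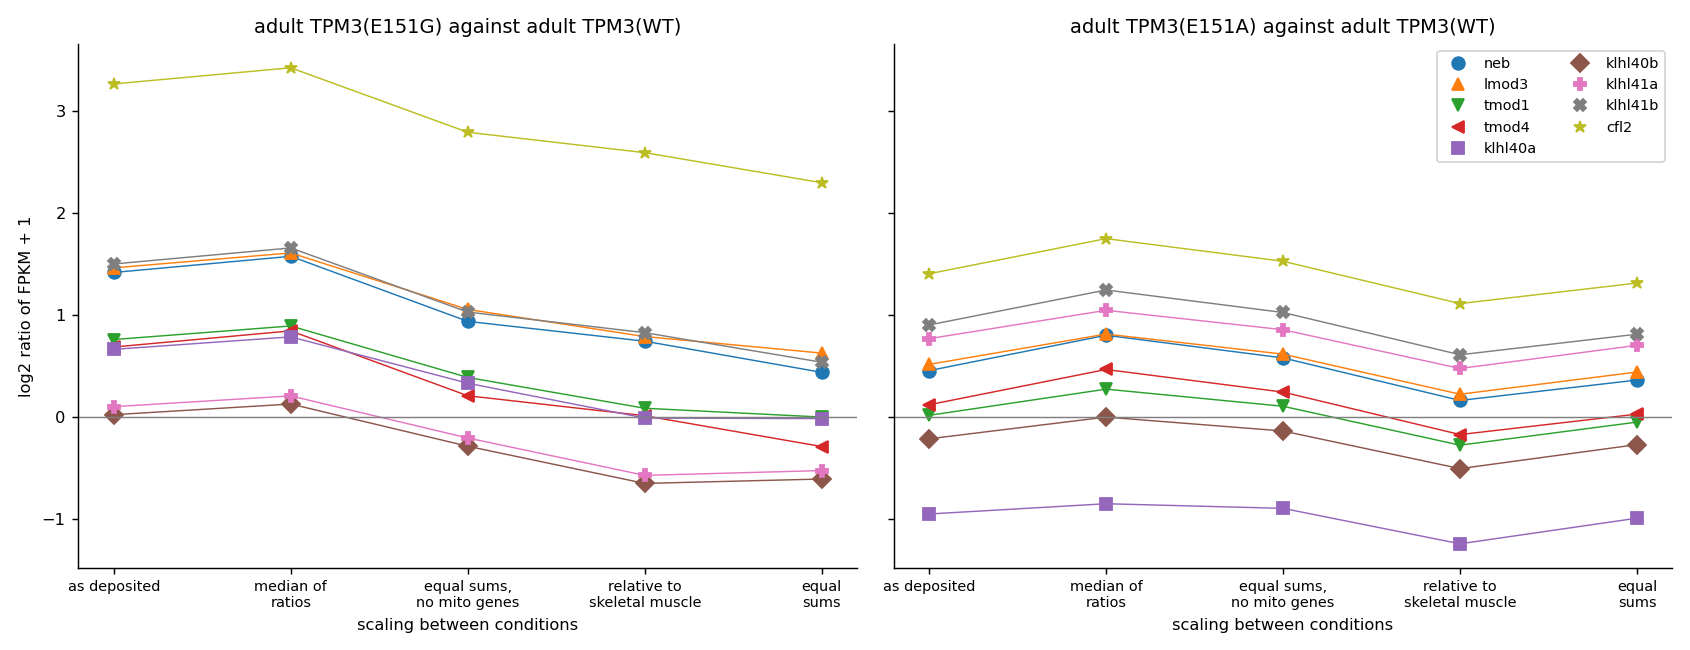
Log2 ratio of FPKM + 1 of the 9 genes in adult TPM3(E151G) (left) and TPM3(E151A) (right), each against TPM3(WT), with the values as deposited and under 4 other scalings, the lines joining the values of 1 gene. In TPM3(E151G) cfl2 lies between 2.29 and 3.42 whichever scaling is used, and klhl40b and klhl41a fall below 0 under 3 of them.

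In embryos none of the 9 genes reached 2-fold in any comparison. For TPM3(E151G) against TPM3(WT), 0.637% of 17581 genes were at least 2-fold higher and 1.79% at least 2-fold lower. The log2 ratio was 0.48 for cfl2, 0.45 for tmod4, 0.43 for neb and 0.40 for klhl41b, each above at least 86.4% of genes, and 0.20 for lmod3. It lay between -0.06 and 0.07 for klhl40b, klhl41a, klhl40a and tmod1. The 4 genes with the larger ratios were the 4 abundant ones. The skeletal muscle markers had a median of 0.47, and relative to it neb, tmod4 and klhl41b turned to -0.04, -0.01 and -0.07 while cfl2 was at 0.01. The scarcer lmod3, klhl40b, klhl41a, klhl40a and tmod1 were at -0.26, -0.40, -0.45, -0.48 and -0.53 relative to these markers. The median of the 9 genes was 0.20, against 0.04 for all genes.

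The TPM3(E151A) embryos showed another order. Against TPM3(WT), 0.99% of 17577 genes were at least 2-fold higher and 0.996% at least 2-fold lower, and again none of the 9 was among them. The largest log2 ratio was that of klhl40b, at 0.55, which was above 94.0% of genes. It was followed by klhl40a at 0.31, lmod3 at 0.30 and neb at 0.29, and these 4 ratios stayed above 0 under every scaling tried. The remaining ratios were 0.16 for klhl41a, 0.14 for klhl41b, 0.12 for cfl2, 0.10 for tmod4 and -0.01 for tmod1, and all but the last turned below 0 relative to the skeletal muscle markers, whose median was 0.18. The median of the 9 genes was 0.16, against 0.02 for all genes.

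The l-carnitine embryos were compared with untreated TPM3(E151G) embryos and with TPM3(WT) embryos. Against untreated TPM3(E151G), 2.55% of 17585 genes were at least 2-fold higher and 0.199% at least 2-fold lower, and none of the 9 genes reached that limit. The log2 ratio was -0.45 for tmod4, -0.38 for klhl41b, -0.36 for neb, -0.32 for cfl2 and -0.29 for klhl41a. For lmod3 it was -0.16, and it was -0.02 for tmod1, 0.03 for klhl40a and 0.05 for klhl40b. The median was -0.29, against -0.04 for all genes. The skeletal muscle markers had a median of -0.48, with 21 of 23 below 0, and relative to them all 9 ratios were above 0. Against TPM3(WT), where 1.97% of 17731 genes were higher and 0.384% lower, the ratios of the 9 genes ran from -0.28 for klhl41a to 0.16 for cfl2 with a median of 0.03. For neb, tmod4 and klhl41b these ratios were 0.07, 0.00 and 0.03. These comparisons share the l-carnitine library, and the untreated TPM3(E151G) library also enters the comparison with TPM3(WT), so their values are not independent of each other.

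Adult and embryo values stand in separate tables, so the values of a genotype are given side by side without a call. In TPM3(WT) the log2 ratio of adult muscle over embryos was 1.32 for tmod4 and 0.88 for neb. It was -1.26 for klhl40a, -0.85 for klhl40b, -0.69 for cfl2 and -0.64 for klhl41b, where the median of all genes was -0.27. In TPM3(E151G) it was 2.09 for cfl2, 1.87 for neb, 1.55 for tmod4 and 0.46 for klhl41b, with -0.59 for klhl40a and -0.89 for klhl40b, where the median of all genes was -0.47. The klhl40 copies were lower in adult muscle in all 3 genotypes. As deposited, cfl2 and klhl41b were lower in adult TPM3(WT) and higher in adult TPM3(E151G) and TPM3(E151A). In TPM3(E151A) the ratio was 0.59 for cfl2 and 0.13 for klhl41b. As a share of all FPKM, klhl41b was lower in adults in TPM3(E151G), at 0.00726% against 0.0100% in embryos. The same was seen in TPM3(E151A), at 0.00884% against 0.00933%, while the share of cfl2 stayed higher in adults of both mutants. These shares include the mitochondrial genes, which took 47.6% of the adult and 14.0% of the embryo sum in TPM3(E151G). In TPM3(E151A) they took 36.2% and 13.1%. The part of this difference in the lower adult share of klhl41b was not tested.

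Quotients between genes of the same condition do not depend on the scaling between conditions. The quotient of cfl2 over tmod4 FPKM was 1.43 in TPM3(E151G) adults, 0.580 in TPM3(E151A) adults and 0.235 in TPM3(WT) adults. In embryos it was 1.08 in TPM3(E151G) with l-carnitine, 0.979 in TPM3(E151G), 0.983 in TPM3(E151A) and 0.964 in TPM3(WT). The relation of cofilin-2 to the tropomodulin of the same filament therefore differed between adult conditions and hardly between embryos. The quotient of neb over tmod4 was 4.57 in TPM3(E151G) adults, 3.48 in TPM3(E151A) adults and 2.76 in TPM3(WT) adults, and lay between 3.69 and 4.29 in embryos. That of klhl41b over tmod4 was 0.378, 0.369 and 0.212 in the adult conditions in the same order, and 0.809 to 0.863 in embryos. Set against the main actin gene of these samples, actc1b, the FPKM of actin per nebulin was 9.45 in TPM3(E151G) adults, 10.7 in TPM3(E151A) adults and 18.2 in TPM3(WT) adults, against 43.6 to 51 in embryos.

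Cofilin-2 shares its work with cofilin-1, the cofilin of non-muscle cells, encoded by cfl1. The cfl1 level was 174 FPKM in adult TPM3(E151G), 158 FPKM in adult TPM3(E151A) and 347 FPKM in adult TPM3(WT). The quotient of cfl2 over cfl1 was 2.21 in TPM3(E151G) adults, 0.667 in TPM3(E151A) adults and 0.113 in TPM3(WT) adults, and 0.157 to 0.189 in embryos. So cfl2 made up 68.9% of the FPKM of this pair in TPM3(E151G) adults, 40.0% in TPM3(E151A) adults and 10.2% in TPM3(WT) adults. The oocyte markers above were also highest in adult TPM3(WT), and their part in the cfl1 level was not tested.

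**Figure D4:**
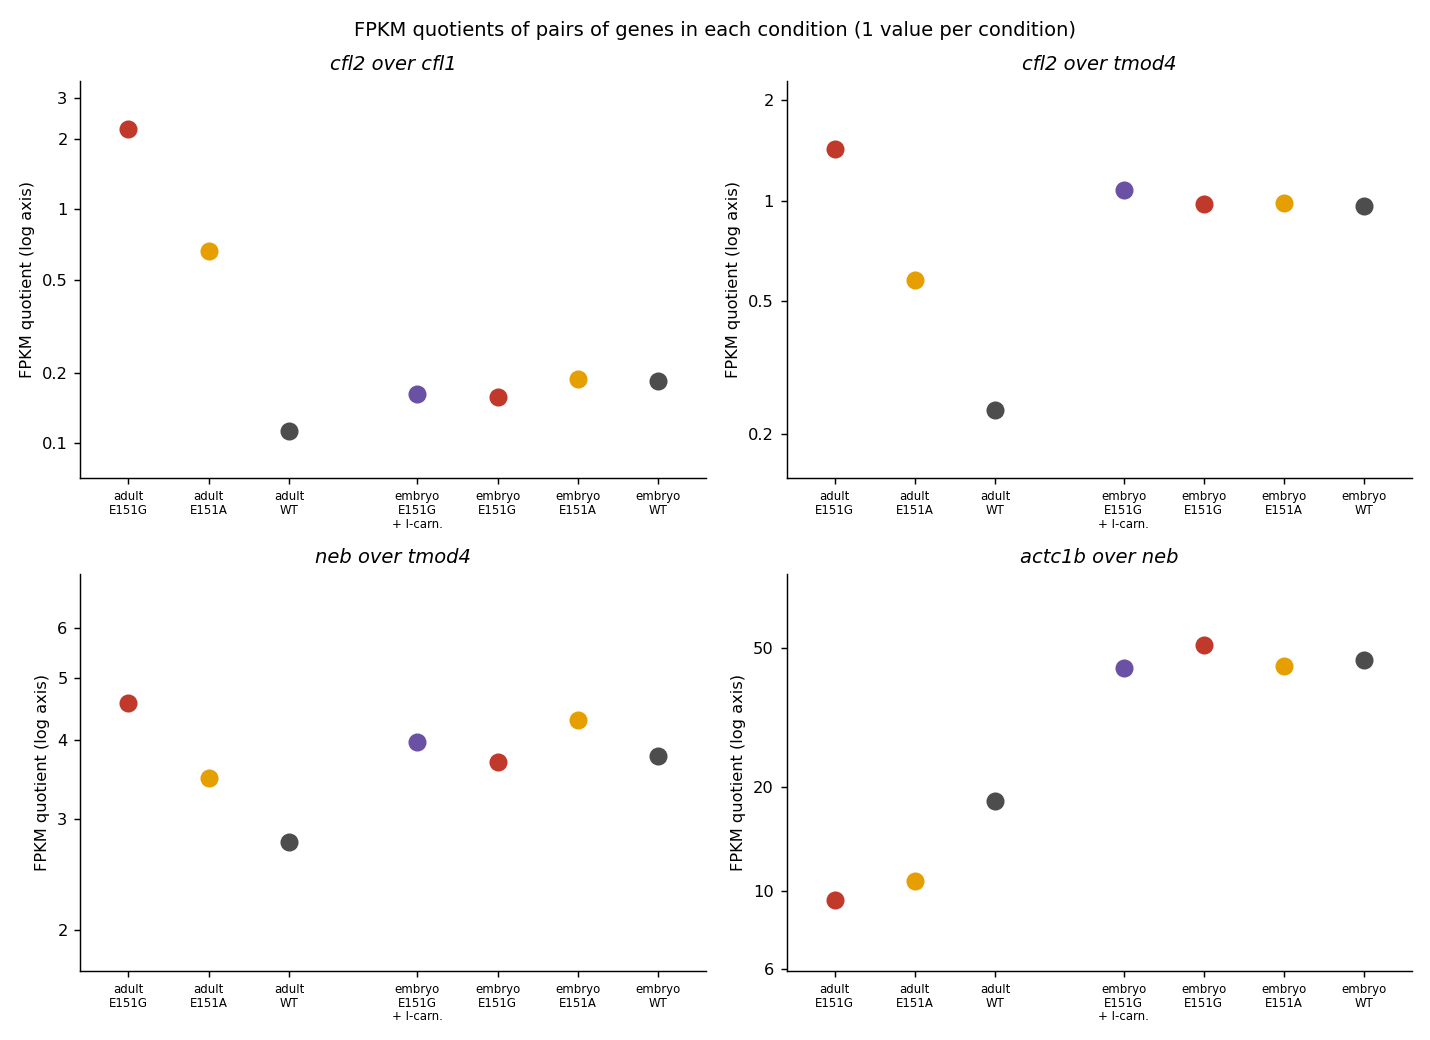
FPKM of the first gene divided by that of the second (vertical axes, log scale) in each of the 7 conditions, 1 value per point, for cfl2 over cfl1, cfl2 over tmod4, neb over tmod4 and actc1b over neb. The adult points of cfl2 over tmod4 are 1.43 in TPM3(E151G), 0.580 in TPM3(E151A) and 0.235 in TPM3(WT), and the 4 embryo points lie between 0.964 and 1.08.

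Genes around cofilin were read as a list beside cfl2. This and the lists that follow are given as deposited, and a check of their adult medians against TPM3(WT) under the 4 other scalings, chosen after seeing the data, is given with each. In the values as deposited, the shares of all genes to set beside the counts are 17.4% higher and 25.5% lower in TPM3(E151G), and 9.9% higher and 19.2% lower in TPM3(E151A). With equal FPKM sums those in TPM3(E151G) are 4.89% and 47.1%. In TPM3(E151G) against TPM3(WT), 2 of 12 cofilin partners passed the 2-fold limit upward and 4 downward, and their median log2 ratio was -0.39, against -0.14 for all genes. Counts of 2 and 4 of 12 are near the shares of all genes that were higher and lower. Lower were cfl1l, a gene close to cfl1, at -1.91, cap1, a cofilin helper in actin turnover, at -1.93, wdr1, which aids filament disassembly by cofilin, at -1.42, and ssh1b, of the slingshot phosphatases that activate cofilin, at -1.57. Higher were cap2, the muscle-rich relative of cap1, at 1.298 and limk2, a kinase that inactivates cofilin, at 1.07. In TPM3(E151A) against TPM3(WT) 4 of 12 were lower, namely cap1 at -2.02, wdr1 at -1.51, ssh1b at -1.17 and cfl1 at -1.13, and none was higher, with a median of -0.69. Both medians were below 0 under every scaling, but with equal FPKM sums none of the 12 was higher and 6 were lower in TPM3(E151G). That count of 6 is near the 47.1% of all genes lower with equal sums. In TPM3(E151G) the median of all genes was also below 0 as deposited and with equal sums, so the sign is not particular to this list. In embryos none of 14 reached 2-fold in any comparison.

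Nebulin and tropomodulin also have relatives and neighbours at the filament ends. Of 12 such genes compared in adult TPM3(E151G) against TPM3(WT), 2 were higher, nrap, a nebulin-related anchoring protein, at 1.44 and capza1b, a subunit of the barbed-end cap, at 1.16. The leiomodin gene lmod2b was lower, at -1.52, opposite to lmod3. The sarcomere cross-linkers actn3a and actn3b were at 0.14 and 0.39, and the other cap subunit gene capzb was at 0.84. The median of the list was 0.01, and a count of 2 of 12 is again close to the share of all genes. With equal FPKM sums none of the 12 was higher and 4 were lower, and relative to the skeletal muscle markers none was higher and 2 were lower. In TPM3(E151A) none of the 12 reached 2-fold, lmod2b being at -0.55 and nrap at 0.73, with a median of -0.09. These medians had no stable sign, lying between -0.81 and 0.16 in TPM3(E151G) and between -0.38 and 0.24 in TPM3(E151A) over the scalings. In embryos none of 10 reached 2-fold, and tmod2, a tropomodulin of nerve cells, came nearest at 0.998 in TPM3(E151G) with l-carnitine against untreated TPM3(E151G).

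Among other kelch genes of muscle and the cullin-3 ligase with which such proteins work, 4 of 10 were at least 2-fold higher in adult TPM3(E151G) than in TPM3(WT) and none was lower. The 4 were klhl38b at 2.52, klhl30 at 1.68, kbtbd12 at 1.21 and klhl38a at 1.19. The median was 0.70, and it was -0.26 with equal FPKM sums, where 1 gene was higher and 2 were lower, and 0.03 relative to the skeletal muscle markers, where 2 were higher and 2 lower. In FPKM klhl38b had 146 in TPM3(E151G), 22.2 in TPM3(E151A) and 24.8 in TPM3(WT). The ligase genes cul3a and rbx1 were at 0.27 and 0.43, whereas the other cullin-3 gene, cul3b, was at -0.44. The kelch gene klhl31 was at 0.97. In TPM3(E151A) none of the 10 reached 2-fold, and the median was -0.11, which was 0.23 after median-of-ratios scaling. In embryos none of 8 did so in any comparison, the largest being klhl31, at 0.74 in TPM3(E151G) with l-carnitine, 0.73 in TPM3(E151G) and 0.60 in TPM3(E151A), each against TPM3(WT).

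Further genes behind nemaline or related congenital myopathies were read as a list of 11, of which 4 are also in the skeletal muscle list and 4 in the slow fiber list. In adult TPM3(E151G) against TPM3(WT), 5 of 11 were higher by 2-fold or more and none was lower, with a median of 0.65. The count depended on scaling, with 1 higher and 2 lower with equal FPKM sums, 1 higher and none lower with equal sums without mitochondrial genes, and 1 higher and 1 lower relative to the skeletal muscle markers. As deposited, the 5 were ryr1a, a calcium release channel of the sarcoplasmic reticulum, at 3.21, tnnt1, the slow troponin T, at 1.42, ryr3 at 1.16, and the actin genes acta1b at 1.099 and acta1a at 1.06. The zebrafish tropomyosin genes tpm3 and tpm2 were at -0.29 and 0.41, and tnnt3b, the most abundant of the list in adults, was at 0.13. In TPM3(E151A) acta1a alone was higher by 2-fold or more, at 1.87, and the median of 10 genes was 0.19. Relative to the skeletal muscle markers the median of this list was -0.03 for TPM3(E151G) and -0.10 for TPM3(E151A), each being above 0 under the other scalings. In embryos none reached 2-fold. The 12 genes of slow muscle fibers, measured beside them, had a median of 1.39 in adult TPM3(E151G) against TPM3(WT), with 9 higher by 2-fold or more, and 0.29 in adult TPM3(E151A), with 1 higher. The TPM3(E151G) median was above 0 under every scaling, with 0.44 as its lowest value, but its count was 4 higher and 1 lower with equal FPKM sums, 5 higher with equal sums without mitochondrial genes and 4 higher relative to the skeletal muscle markers. The median of TPM3(E151A) was -0.0017 relative to the skeletal muscle markers. The part of slow fiber genes in the results on the 9 genes was not tested.

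Muscle transcription factors and activators of serum response factor, a regulator of many actin genes, gave a mixed list. Of 12 genes compared in adult TPM3(E151G) against TPM3(WT), 4 were higher by 2-fold or more and 1 was lower, with a median of 0.33. These counts depended on scaling. They were 1 higher and 3 lower with equal FPKM sums, and 2 higher and 3 lower with equal sums without mitochondrial genes. Relative to the skeletal muscle markers, 1 was higher and 4 were lower. The median ratio of all genes was also below 0 under each of these scalings, so the change is not particular to this list. As deposited, higher were mef2ca at 2.19, mef2d at 1.65, myod1 at 1.21 and mef2cb at 1.07, and mef2ab was lower at -1.25. The adult level of mef2ab was 0.220 FPKM in TPM3(E151G), 0.295 FPKM in TPM3(E151A) and 1.90 FPKM in TPM3(WT), so its ratios depend on the added constant. The serum response factor genes themselves were low, srfa and srfb having 0.972 and 1.75 FPKM in adult TPM3(E151G) and 1.601 and 1.95 FPKM in adult TPM3(WT). The actin-binding activator genes abraa and abrab were at 0.80 and -0.83. In adult TPM3(E151A) against TPM3(WT) 3 of 12 were higher, myod1 at 1.33, mef2ca at 1.14 and myog at 1.096, and mef2ab was lower at -1.16. The list's median was below 0 in TPM3(E151G) under 3 scalings, with -0.56 as the lowest, and above 0 in TPM3(E151A) under all. In embryos none of 12 reached 2-fold in any comparison.

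The genes with a pattern most like that of neb were found by the root-mean-square difference between log2 profiles over the 3 adult and 4 embryo conditions, centred within each stage, among genes with an FPKM of at least 5 at both stages. The nearest of 8022 genes were cnbpb, fxr1, pitx3, rbms2b and pcnp, with differences of 0.035 to 0.049, where the median gene differed by 0.50. Of these, fxr1, an RNA-binding protein abundant in muscle, had 126, 64.0 and 48.9 FPKM in adult TPM3(E151G), TPM3(E151A) and TPM3(WT). In adults pitx3 passed the FPKM limit only through TPM3(E151G), at 5.02 FPKM, against 1.93 FPKM in TPM3(E151A) and 1.38 FPKM in TPM3(WT). Of the other members, klhl41b ranked 253 in likeness to neb with a difference of 0.13 and tmod4 ranked 828 with 0.21. For cfl2 the rank was 4016 with 0.50, about the difference of the median gene. This measure counts the size of changes as well as their order. The adult order of cfl2 was that of neb, over a 9.81-fold range against 2.67-fold. Taking the mean profile of the 4 members abundant enough to rank, which are neb, tmod4, klhl41b and cfl2, the nearest genes were ndufa3, tagln2, ndufb11, pcnp and smdt1a, with differences of 0.025 to 0.053. Of these, ndufa3 and ndufb11 encode subunits of respiratory complex I, and smdt1a a regulator of the mitochondrial calcium uniporter.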

How the data were processed

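Read processing was done by the authors, who called bases with bcl2fastq 2.20, trimmed with Trimmomatic 0.36 and aligned to GRCz11 (Ensembl 99) with HISAT2. In the submitters' notes featureCounts 1.6.3 and DESeq2 1.22.2 appear too, without their role. The authors deposited 7 tables of FPKM, 1 per comparison, with the libraries of an adult genotype combined. The deposited ratio, log2 ratio, p-value and q-value columns and the sheets of called genes hold the authors' own comparisons and were not used. No counts were given, so depth per library is unknown and its effect on precision could not be computed. Between tables, the FPKM of a condition differed for 1 to 21 genes, 0 of them among the 9.

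From the FPKM, log2 ratios were computed with 1 added, where either condition had an FPKM of 1 or more. A condition's sum over all genes was taken as a check of scaling. The members and gene lists were chosen with earlier results of these data known. Genes named are the 9, up to 4 of each list by FPKM in adult TPM3(WT), and those past 2-fold where at most 5 were. The genes ssh1b, cap2, limk2, srfa, srfb, tmod2 and cul3b, and nrap and lmod2b in TPM3(E151A), were named after their values were seen. A list counts gene entries, so a symbol with several loci counts for each. Planned limma tests, the replicate block and leaving out a library were not run, as no value per library was at hand. Calculations were tested on simulated data and run with Python 3.11.15, numpy 2.4.6, pandas 2.3.3 and matplotlib 3.10.9.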

Additional observations from a re-analysis of the deposited data

Results flagged for a closer look

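The gene klhl40a had opposite directions at the 2 stages for TPM3(E151A) against TPM3(WT). Its log2 ratio of FPKM + 1 was -0.95 in adult muscle, at 0.361 FPKM in TPM3(E151A) and 1.63 FPKM in TPM3(WT), and 0.31 in embryos, at 6.80 FPKM in TPM3(E151A) and 5.28 FPKM in TPM3(WT). The difference was not tested, since each condition has 1 value.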

How the results depend on the processing

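No paired analysis was possible because the tables hold 1 value per genotype, and for the same reason leaving out an adult library was not run. A median or count of the 9 genes was taken as kept within 1.5-fold, which held for 172 of 196 such values under the alternatives. Counts that were 0 both ways were kept by this rule, and a median near 0 was kept even where its sign changed. The 172 of 196 therefore does not measure how stable the adult values are, which are given below. In adult TPM3(E151A) against TPM3(WT), the count of members 2-fold or more higher was 1 as reported, 3 after median-of-ratios scaling, 2 with equal FPKM sums without mitochondrial genes, 2 with 0.1 added, 3 at a 1.5-fold limit and 0 at a 3-fold limit. The count lower was 0 as reported and 1 each relative to skeletal muscle, with 0.1 added and at 1.5-fold. In adult TPM3(E151G) against TPM3(WT), the median of 0.76 was -0.00080 with equal sums, 0.086 relative to skeletal muscle and 1.46 with an FPKM minimum of 5, which left 5 members. The count higher, 4 as reported, was 1 with equal sums, 1 relative to skeletal muscle, 7 at 1.5-fold and 1 at 3-fold. In adult TPM3(E151G) against TPM3(E151A), the median of 0.74 was 0.054 with equal sums. The count higher, 2 as reported, was 1 with equal sums, with 5 added and with an FPKM minimum of 5, and 6 at 1.5-fold, and the count lower was 1, not 0, with equal sums, with equal sums without mitochondrial genes, relative to skeletal muscle and at 1.5-fold. Scaling also moved the split over all genes. With equal sums 4.89% were higher and 47.1% lower in adult TPM3(E151G) against TPM3(WT), and 1.62% and 29.1% in TPM3(E151G) against TPM3(E151A), while median-of-ratios scaling gave 15.4% higher and 11.7% lower in adult TPM3(E151A) against TPM3(WT). Relative to skeletal muscle, 0.171% were higher and 10.8% lower in embryo TPM3(E151G) against TPM3(WT), and 0.558% and 1.83% in embryo TPM3(E151A). Of 63 ratios of a member in a comparison, 31 kept their sign under every alternative. The cause of these shifts was not tested. Where no share of all genes stands beside a count under an alternative, as at the 1.5-fold and 3-fold limits, the count only shows dependence on the processing. Such a count is not read as a result about the members or lists.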
